A study of Homo sapiens with 12 samples.

Results

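The G1/S and DNA replication genes described here are 48 genes whose products license, start and carry out the copying of DNA and supply its nucleotides. They were given as a list of symbols, by a rule that uses no measured value, and matched to the Ensembl identifiers of the deposited gene table. All 48 were matched among 60664 identifiers, and all 48 are protein coding. The series holds RNA sequencing of 12 samples from 2 human hepatoma lines, Huh-7 and MHCC-97H, both labelled wild type and grown in DMEM with fetal bovine serum. In each line 3 samples had been transfected with si-CENPU, a small interfering RNA (siRNA) against CENPU, and 3 with si-NC, a control siRNA. The CENPU protein is part of the inner kinetochore. All samples compared, controls included, had received an siRNA. The time after transfection is not given in the sources used here. The labels do not say that the 3 samples of a group were separate cultures, so p-values measure only their spread, which may be technical.

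Before S phase, the origin recognition complex, CDC6 and CDT1 load the MCM2 to MCM7 helicase ring onto origins. Cyclin E with its kinase then promotes origin firing, in which CDC45 and the GINS complex join MCM to form the active helicase. DNA polymerase alpha with primase lays down primers, polymerases epsilon and delta extend them, PCNA is the sliding clamp and the RFC complex its loader. Many of these genes are textbook targets of the E2F transcription factors, which are released as cells pass from G1 into S phase. Their RNA is therefore widely used as a sign of cycling cells in tumours, liver tumours included.

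Promoter sequences were looked at because the module is known for shared E2F control. RefSeq promoters on GRCh38.p14, each 300 bases from 250 before to 50 after the annotated start, were at hand for 41 of the 48 genes. The letters TTTCGCGC, TTTGGCGC, TTTCCCGC or TTTGCCGC occurred on either strand in 20 of the 41 (48.8%), against 1164 of 35116 promoters in all (3.31%). The letters CCAAT occurred on either strand in 23 of the 41 (56.1%), against 34.6% of all promoters. The promoters of the replication genes had a median GC content of 65.0%, against 58.7% for all. A match is a description of letters and not a measured binding site. The 5 promoters below are shown 5′ to 3′ on the strand of the gene, with the E2F-type letters in capitals. Those of MCM2, MCM6 and PCNA belong to genes that were at or near 0 TPM in Huh-7, and the other 2 to genes among the highest in both lines.
MCM2 promoter, chr3:127598161-127598460, plus strand: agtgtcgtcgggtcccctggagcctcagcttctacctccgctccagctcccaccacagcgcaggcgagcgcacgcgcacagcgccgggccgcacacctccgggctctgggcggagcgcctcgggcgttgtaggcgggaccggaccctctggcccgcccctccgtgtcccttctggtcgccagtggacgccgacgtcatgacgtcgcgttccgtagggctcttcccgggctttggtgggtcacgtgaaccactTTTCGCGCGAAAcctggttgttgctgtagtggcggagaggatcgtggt
MCM6 promoter, chr2:135876394-135876693, minus strand: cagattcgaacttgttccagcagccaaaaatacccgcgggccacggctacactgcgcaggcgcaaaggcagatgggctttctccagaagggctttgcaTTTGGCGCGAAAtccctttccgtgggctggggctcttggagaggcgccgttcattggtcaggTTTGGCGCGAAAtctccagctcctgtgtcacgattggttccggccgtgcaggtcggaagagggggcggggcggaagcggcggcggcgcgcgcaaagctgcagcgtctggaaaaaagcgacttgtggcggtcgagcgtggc
MCM7 promoter, chr7:100101348-100101647, minus strand: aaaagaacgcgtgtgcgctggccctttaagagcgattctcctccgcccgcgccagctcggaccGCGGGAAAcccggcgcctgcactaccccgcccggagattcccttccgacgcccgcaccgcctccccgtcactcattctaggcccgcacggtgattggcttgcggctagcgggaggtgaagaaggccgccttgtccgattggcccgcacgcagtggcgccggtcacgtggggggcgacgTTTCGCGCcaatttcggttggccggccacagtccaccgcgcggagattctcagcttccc
PCNA promoter, chr20:5126573-5126872, minus strand: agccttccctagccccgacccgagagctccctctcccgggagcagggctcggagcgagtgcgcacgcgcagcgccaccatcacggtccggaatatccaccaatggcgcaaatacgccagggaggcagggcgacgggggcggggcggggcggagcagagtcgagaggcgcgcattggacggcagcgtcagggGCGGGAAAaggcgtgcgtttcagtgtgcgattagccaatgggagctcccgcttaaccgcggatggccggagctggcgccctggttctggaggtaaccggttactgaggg
CDT1 promoter, chr16:88803539-88803838, plus strand: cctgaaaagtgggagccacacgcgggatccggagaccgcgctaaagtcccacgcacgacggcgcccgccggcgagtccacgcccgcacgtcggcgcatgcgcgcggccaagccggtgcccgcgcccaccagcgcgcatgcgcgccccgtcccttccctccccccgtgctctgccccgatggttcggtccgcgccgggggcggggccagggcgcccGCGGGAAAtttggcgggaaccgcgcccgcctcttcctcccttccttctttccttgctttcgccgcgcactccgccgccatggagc
MCM6 held 4 matches, the most of any of the 41, in a pair of runs where matches on opposite strands share bases. The 2 matches in MCM2 overlap in the same way, whereas the 2 in MCM7 lie apart, and PCNA and CDT1 held 1 each. POLD1 and RFC2, which were also near 0 in Huh-7, held none of these letters in this window.

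Values are TPM as deposited, an estimate of each gene's share of all transcripts in a library. TPM is scaled for transcript length, so levels of different genes can be compared, but it keeps no sequencing depth and the depth of each library is unknown. The deposited values summed to between 998416 and 999065 TPM per library. Differences were tested with limma on log2(TPM + 1), over the 11088 genes with a mean of at least 1 TPM over the 12 libraries. Fold changes on this scale understate the change of low genes. Called genes had a Benjamini-Hochberg adjusted p below 0.05. Of the 48 replication genes 46 passed the filter, and ORC2 and CCNE2 did not. CENPU itself was read at 0.56, 0.84 and 0.53 TPM with si-NC against 0.17, 0.11 and 0.45 TPM with si-CENPU in Huh-7. In MHCC-97H it was read at 1.17, 0.83 and 0.89 TPM with si-NC against 0.22, 0.45 and 0.24 TPM with si-CENPU. The groups did not overlap in either line, at low levels. On the log2 scale the differences were -0.41 (Huh-7) and -0.59 (MHCC-97H), each with a two-sided exact permutation p of 0.1, the smallest that 3 against 3 samples allow. Over both lines together it was -0.50, with an exact permutation p of 0.005, again the smallest possible.

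The hepatoma label was checked on 11 hepatocyte markers. In Huh-7, 10 of the 11 averaged at least 1 TPM in both groups, with a summed level of 10692.56 to 12414.61 TPM per library. In MHCC-97H only the keratins KRT8 and KRT18 did, with a summed level of 2884.65 to 3457.18 TPM, and the defining markers ALB and AFP reached at most 0.03 and 0.13 TPM. Fibroblast and endothelial marker lists summed to at most 6.56 and 0.68 TPM in any library. Of the 4 leukocyte markers with a value, CD68 and LYZ carried a summed 47.08 to 72.09 TPM in Huh-7 and CD68 most of 17.5 to 20.27 TPM in MHCC-97H, while the T cell marker CD3E was at most 0.08 TPM. A list of 6 proliferation markers, none of them in the replication list, summed to 8.78 to 18.95 TPM in Huh-7 and 135.26 to 184.78 TPM in MHCC-97H. The gap was unequal by gene. PLK1, CDK1 and BIRC5 reached at most 0.31, 0.38 and 3.74 TPM in Huh-7 against 82.91, 19.46 and 44.12 TPM in MHCC-97H. MKI67, TOP2A and CCNB1 reached at most 4.55, 2.65 and 9.46 TPM in Huh-7 against 7.68, 11.33 and 33.05 TPM in MHCC-97H.

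The replication genes were higher in MHCC-97H than in Huh-7 and did not change detectably with si-CENPU in either line. Their summed level was 448.04 to 568.8 TPM in the 6 Huh-7 libraries and 1079.22 to 1377.11 TPM in the 6 MHCC-97H libraries. The mean of 6 libraries was higher in MHCC-97H for 46 of the 48, the exceptions being GINS1 and RPA3. At least 5 TPM was reached by 15 genes in Huh-7 and by 34 in MHCC-97H. In bulk RNA fewer cells in S phase and less of these RNAs per cell cannot be told apart.

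**Figure D1:**
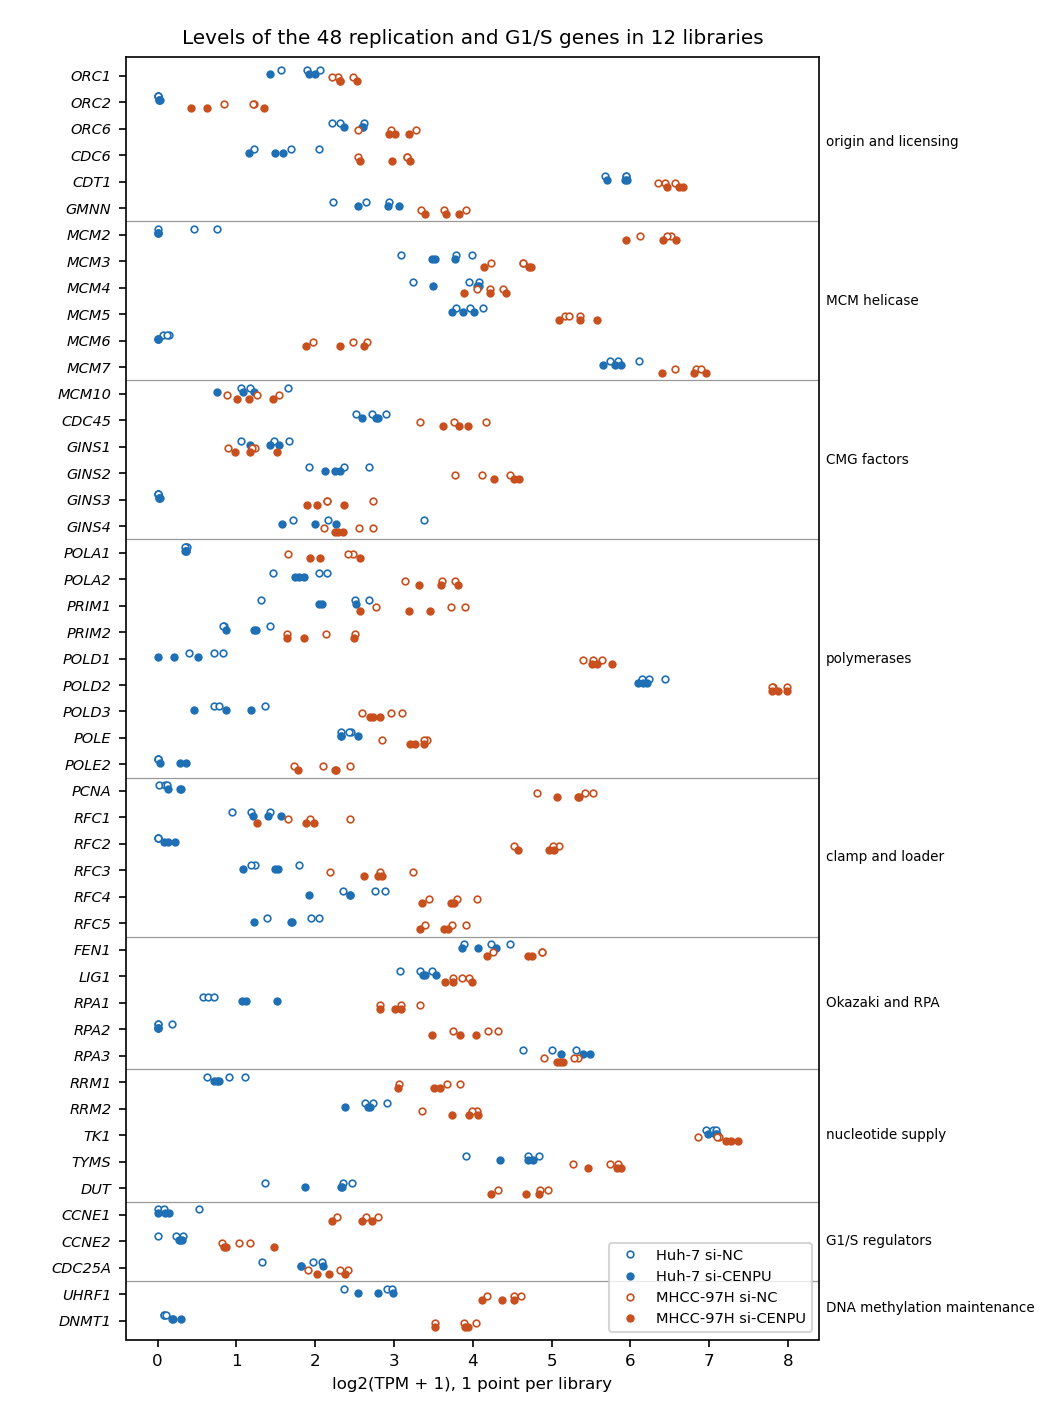
Level of each of the 48 replication genes in every library, on a log2(TPM + 1) axis, with 1 row per gene ordered by role and 1 point per library, coloured by line and siRNA. The Huh-7 points lie left of the MHCC-97H points for most genes, PCNA, RFC2, POLD1 and MCM2 sit at or near 0 in Huh-7, and the si-NC and si-CENPU points of a line lie together.

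Filtering on the mean over all 12 libraries admits genes that are near 0 in Huh-7 only because they are high in MHCC-97H, and such genes had to differ. Of the 46 tested replication genes, 14 averaged under 1 TPM in one of the lines, in each case Huh-7. The line comparison is therefore given first for the 32 that averaged at least 1 TPM in each line. With si-NC, 24 of these 32 were called higher in MHCC-97H and 0 lower, where 47.8% of the 8005 genes tested under that filter were called higher and 17.8% lower. With si-CENPU, 23 of the 32 were called higher and 0 lower, where 43.1% of all were higher and 19.1% lower. The median log2 difference of the 32 was 0.95 with si-NC, against 0.45 for all genes, and 0.88 with si-CENPU, against 0.35. Over all 46, with the filter as first stated, 38 were called higher with si-NC (50.1% of all tested genes were) and 37 with si-CENPU (46.2%), 36 of them in both. None was called lower in either, where 22.9% and 23.9% of all genes were. The median of the 46 was 1.29 with si-NC and 1.37 with si-CENPU, against 0.49 and 0.40 for all genes.

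Genes in general were read higher in MHCC-97H, so the scaling bears on these counts. A trimmed-mean scaling between libraries moved the median difference of all genes from 0.49 to 0.01 with si-NC and from 0.40 to 0.01 with si-CENPU. It turned the split over all genes from 5557 higher and 2542 lower to 3802 and 3827 with si-NC, and from 5125 and 2647 to 3724 and 3823 with si-CENPU. Under it, 16 of the 32 genes expressed in both lines were higher and 4 lower with si-NC, where 34.3% of all genes were higher and 34.5% lower. With si-CENPU 18 were higher and 2 lower, where 33.6% of all genes were higher and 34.5% lower. These shares are over all 11088 tested genes, not only those at 1 TPM or more in each line, so the sets are unlike. Of the 38 genes called higher with si-NC, 30 were also called higher under both trimmed-mean and quantile scaling, and of the 37 with si-CENPU, 32 were. Both counts include the 14 genes under 1 TPM in Huh-7, which had to differ, so they say little on the scaling. The 8 lost with si-NC under trimmed-mean scaling were ORC1, ORC6, CDT1, MCM3, MCM7, POLE, RFC1 and LIG1. Relative to the median of all genes, 37 of the 46 lay above it in each comparison, a count that again includes those 14 genes.

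Origin binding and licensing genes were present in both lines, apart from ORC2. CDT1, which loads MCM together with CDC6 (ENSG00000167513, chr16:88803213-88809258, plus strand), was the highest of this role. Its levels with si-NC were 49.95, 60.27 and 60.53 TPM in Huh-7 and 80.47, 85.74 and 93.86 TPM in MHCC-97H. The lines did not overlap, the ratio of means was 1.52, and the log2 difference of 0.60 (SE 0.108) had an adjusted p of 0.000408 in limma but stood at -0.01 under trimmed-mean scaling. CDC6, the ATPase that recruits CDT1 and MCM, averaged 2.24 ± 0.905 TPM (SD, n = 3) in Huh-7 si-NC and 6.90 ± 1.81 TPM in MHCC-97H si-NC. GMNN, geminin, the inhibitor of CDT1, averaged 5.18 ± 1.496 and 11.5 ± 2.45 TPM in the same groups. ORC1 and ORC6, subunits of the origin recognition complex, differed by log2 0.48 and 0.54 with si-NC, both lost under trimmed-mean scaling. ORC2, a further subunit, was listed at 0 TPM in the 3 Huh-7 si-NC libraries, against 0.79 to 1.33 TPM in those of MHCC-97H.

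Subunits of the MCM ring, which act as 1 complex of 6 different proteins, were read at very unequal levels in Huh-7. MCM2 (ENSG00000073111, chr3:127598223-127622436, plus strand) was read at 0, 0.38 and 0.69 TPM with si-NC against 0 in all 3 libraries with si-CENPU. In MHCC-97H it was read at 90.34, 87.56 and 68.51 TPM with si-NC against 84.27, 94.67 and 60.44 TPM with si-CENPU. The lines were far apart in every library. MCM7 (ENSG00000166508, chr7:100092728-100101940, minus strand) was high in both lines, with 52.59, 56.51 and 68.19 TPM in Huh-7 si-NC against 112.75, 117.85 and 93.49 TPM in MHCC-97H si-NC. Its ratio of means was 1.83 and its log2 difference 0.86 (SE 0.152, limma adjusted p 0.00035), without overlap, though no longer called under trimmed-mean scaling. MCM5 averaged 14.6 ± 1.83 TPM in Huh-7 si-NC against 37.1 ± 2.61 TPM in MHCC-97H si-NC, a ratio of 2.54. MCM3 had a ratio of 1.86 with si-NC. MCM4 was not called in either comparison, with 8.47 to 15.91 TPM in Huh-7 and 13.76 to 20.5 TPM in MHCC-97H, which overlap. MCM6 was at most 0.11 TPM in Huh-7 and 2.68 to 5.33 TPM in MHCC-97H. Within MHCC-97H si-NC too the subunits ranged from 4.28 TPM for MCM6 to 108 TPM for MCM7, so the ring's RNAs were not at equal levels in either line.

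**Figure D2:**
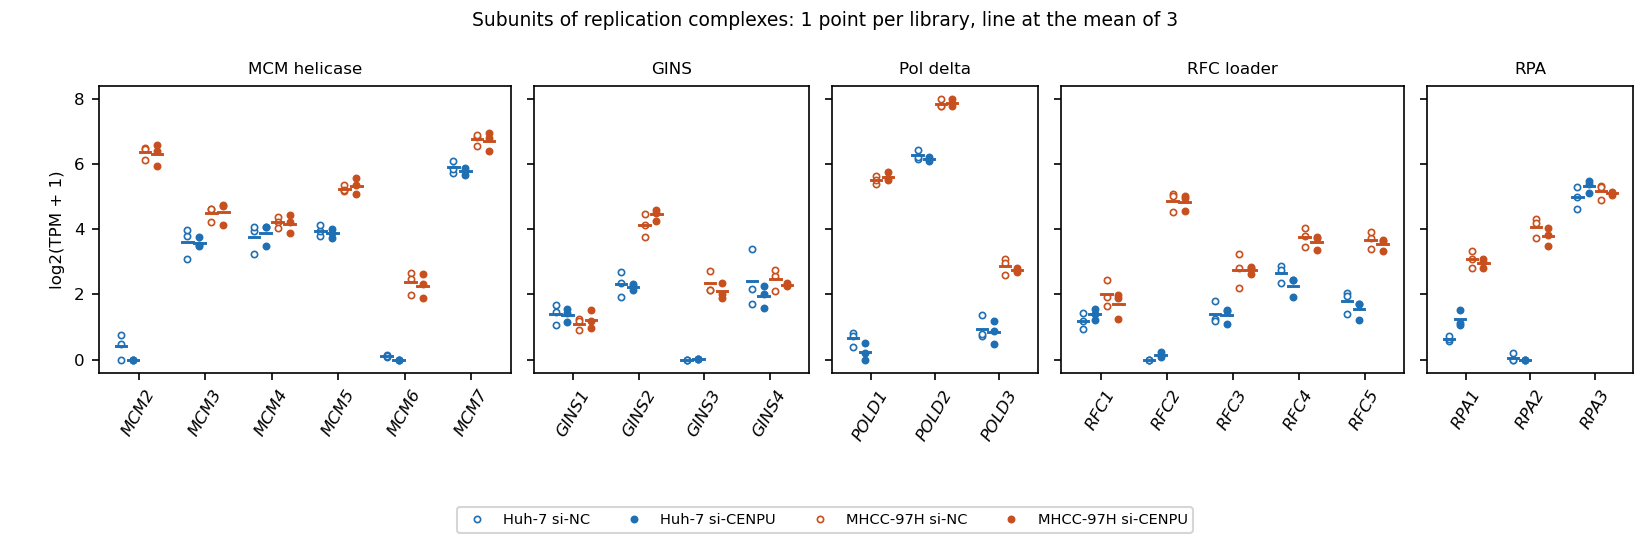
Levels of subunits of the MCM helicase, GINS, polymerase delta, the RFC loader and RPA on a log2(TPM + 1) axis, with 1 point per library and a bar at the mean of 3. In Huh-7 each complex holds subunits well above 0 beside others at or near 0, such as MCM7 beside MCM2 and POLD2 beside POLD1.

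The helicase factors that join MCM at firing split by gene. GINS2 was read at 2.78, 4.16 and 5.4 TPM in Huh-7 si-NC against 21.17, 16.38 and 12.65 TPM in MHCC-97H si-NC. The lines did not overlap, with a ratio of means of 4.07, a log2 difference of 1.80 (SE 0.209) and a limma adjusted p of 1.28e-05. GINS1, of the same complex, averaged 1.68 ± 0.551 TPM in Huh-7 si-NC against 1.17 ± 0.267 TPM in MHCC-97H si-NC, and GINS4 5.06 ± 3.84 and 4.63 ± 1.19 TPM. Neither was called as deposited, and GINS1 was called lower in MHCC-97H under trimmed-mean and quantile scaling with both siRNAs. The large spread of GINS4 rests on 1 library, Huh-7 si-NC 1, at 9.45 TPM against 3.46 and 2.28 TPM in the other 2. GINS3 was listed at 0 TPM in all 3 Huh-7 si-NC libraries, against 3.42, 3.42 and 5.64 TPM in those of MHCC-97H. CDC45 averaged 5.60 ± 0.855 and 12.9 ± 4.001 TPM in the same groups, a ratio of 2.30. MCM10, which helps to activate the helicase, was at 0.68 to 2.15 TPM over both lines, was not called on the deposited scale and was called lower in MHCC-97H with si-NC under trimmed-mean scaling (log2 -0.44).

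All 9 primase and polymerase genes were called higher in MHCC-97H with si-NC, where 50.1% of all tested genes were, and 8 with si-CENPU, where 46.2% were, PRIM1 being the exception. Of these, POLA1, POLD1, POLD3 and POLE2 passed the filter only through MHCC-97H, and POLE lost its si-NC call under trimmed-mean scaling. POLD2 (ENSG00000106628, chr7:44114681-44124358, minus strand), an accessory subunit of polymerase delta, was the highest of them. It was read at 70.13, 74.04 and 85.95 TPM in Huh-7 si-NC against 222.32, 253.25 and 221.42 TPM in MHCC-97H si-NC. The ratio of means was 3.03, and the log2 difference of 1.59 (SE 0.0945) had a limma adjusted p of 3.45e-08, with no overlap. Its ratio with si-CENPU was 3.36 (log2 1.73). POLD1 (ENSG00000062822, chr19:50384204-50418016, plus strand), the catalytic subunit of the same enzyme, was read at 0.78, 0.32 and 0.65 TPM in Huh-7 si-NC against 0, 0.16 and 0.43 TPM in Huh-7 si-CENPU. Its MHCC-97H levels were 41.31, 48.89 and 45.16 TPM with si-NC against 46.8, 53.53 and 44.55 TPM with si-CENPU. The accessory subunit was thus read above the catalytic subunit in both lines, and the catalytic subunit was near 0 in Huh-7. The fitted log2 difference of POLD1 with si-NC was 4.87, a value that depends on the pseudocount of 1 TPM, and no p is given because the gene passed the filter only through MHCC-97H. POLE, the catalytic subunit of polymerase epsilon, averaged 4.28 ± 0.238 and 8.42 ± 1.91 TPM in the si-NC groups, while its partner POLE2 was listed at 0 TPM in Huh-7 si-NC against 2.32 to 4.45 TPM in MHCC-97H si-NC. POLA1, the catalytic subunit of polymerase alpha, was 0.27 to 0.3 TPM in all 6 Huh-7 libraries and 2.15 to 4.93 TPM in MHCC-97H. Ratios of means with si-NC were 3.81 for POLA2, 2.76 for PRIM1, 3.15 for PRIM2 and 6.61 for POLD3, which complete the primase and polymerase subunits of the list.

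The clamp and its loader held subunits near 0 in Huh-7 beside others present in both lines. PCNA (ENSG00000132646, chr20:5114953-5126626, minus strand) was read at 0.01, 0.07 and 0.09 TPM in Huh-7 si-NC against 0.1, 0.22 and 0.23 TPM in Huh-7 si-CENPU. Its MHCC-97H levels were 44.92, 42.06 and 27.09 TPM with si-NC against 39.74, 39.19 and 32.5 TPM with si-CENPU. The lowest MHCC-97H library was far above the highest Huh-7 library. The fitted difference of 5.17 on the log2(TPM + 1) scale with si-NC again depends on the pseudocount, and PCNA too passed the filter only through MHCC-97H. RFC2 (ENSG00000049541, chr7:74231499-74254458, minus strand), a small loader subunit, was listed at 0 TPM in the 3 Huh-7 si-NC libraries, at 0.06, 0.17 and 0.1 TPM in Huh-7 si-CENPU against 22.08 to 33.06 TPM in MHCC-97H. RFC4 and RFC5, which sit in the same complex, were present in both lines, at 5.42 ± 1.19 and 2.54 ± 0.805 TPM in Huh-7 si-NC against 12.8 ± 2.84 and 11.97 ± 2.32 TPM in MHCC-97H si-NC. RFC3, a further small subunit, had a ratio of 3.56 with si-NC. RFC1, the large subunit, had a ratio of 2.41 with si-NC (log2 0.82, limma adjusted p 0.00971) and 1.43 with si-CENPU (log2 0.32, limma adjusted p 0.261).

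Single-strand binding protein RPA has 3 subunits, and their RNAs did not follow each other between lines. RPA3, the smallest subunit and the highest of this role, was read at 23.93, 38.68 and 31.18 TPM in Huh-7 si-NC against 39.39, 38.03 and 28.85 TPM in MHCC-97H si-NC, which overlap. Its log2 difference of 0.19 (SE 0.172) had a limma adjusted p of 0.34, turned to -0.42 under trimmed-mean scaling and was called lower there. RPA2 (ENSG00000117748, chr1:27891524-27914746, minus strand) was read at 0.14, 0 and 0 TPM in Huh-7 si-NC, at 0 in all 3 of Huh-7 si-CENPU and at 10.19 to 19 TPM in MHCC-97H. RPA1 (ENSG00000132383, chr17:1829702-1900082, plus strand), the large subunit, was read at 0.49, 0.56 and 0.65 TPM in Huh-7 si-NC against 9.08, 7.52 and 6.06 TPM in MHCC-97H si-NC. Its log2 difference was 2.43, given without a p since RPA1 averaged under 1 TPM in Huh-7 and passed the filter only through MHCC-97H. FEN1, the flap nuclease, and LIG1, the ligase that seals Okazaki fragments, had ratios of 1.42 and 1.52 with si-NC, of which LIG1 alone was called and was lost under trimmed-mean scaling.

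Nucleotide supply held the most abundant gene of the list in Huh-7. TK1, thymidine kinase (ENSG00000167900, chr17:78174075-78187233, minus strand), was read at 123.31, 131.77 and 134.74 TPM in Huh-7 si-NC against 115.02, 138.17 and 135.62 TPM in MHCC-97H si-NC. These overlap, with a log2 difference of -0.01 (SE 0.0857, limma adjusted p 0.945), which was -0.63 and called lower under trimmed-mean scaling. With si-CENPU TK1 was called higher in MHCC-97H by log2 0.23 (ratio 1.17, limma adjusted p 0.0327), and this was lost under trimmed-mean scaling. TYMS, which makes thymidylate, and RRM2, the small subunit of ribonucleotide reductase, had ratios of 2.19 and 2.29 with si-NC. RRM1, the large subunit, averaged 0.857 ± 0.310 TPM in Huh-7 si-NC against 10.8 ± 3.08 TPM in MHCC-97H si-NC, a ratio of 12.6. DUT, which removes dUTP, had a ratio of 7.496.

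CDC25A, the phosphatase that activates the G1/S kinases, was read at 1.51, 2.93 and 3.26 TPM in Huh-7 si-NC against 4.32, 3.99 and 2.76 TPM in MHCC-97H si-NC. The lines overlapped and the difference was not called (log2 0.42, SE 0.213, limma adjusted p 0.0978). CCNE1, cyclin E1, was read at 0.44, 0 and 0.06 TPM in Huh-7 si-NC against 0, 0.07 and 0.11 TPM in Huh-7 si-CENPU, while MHCC-97H had 3.65 to 5.97 TPM. CCNE2 was at most 0.25 TPM in Huh-7 and 0.76 to 1.78 TPM in MHCC-97H. UHRF1, which brings the maintenance methyltransferase to newly copied DNA, was read at 4.15, 6.53 and 6.88 TPM in Huh-7 si-NC against 23.45, 22 and 17.1 TPM in MHCC-97H si-NC. The ratio was 3.56 and the log2 difference 1.69 (SE 0.193, limma adjusted p 1.14e-05), without overlap. DNMT1 (ENSG00000130816, chr19:10133345-10231286, minus strand), that methyltransferase, was read at 0.06, 0.06 and 0.08 TPM in Huh-7 si-NC against 0.23, 0.14 and 0.15 TPM in Huh-7 si-CENPU, while MHCC-97H had 10.49 to 15.39 TPM.

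**Figure D3:**
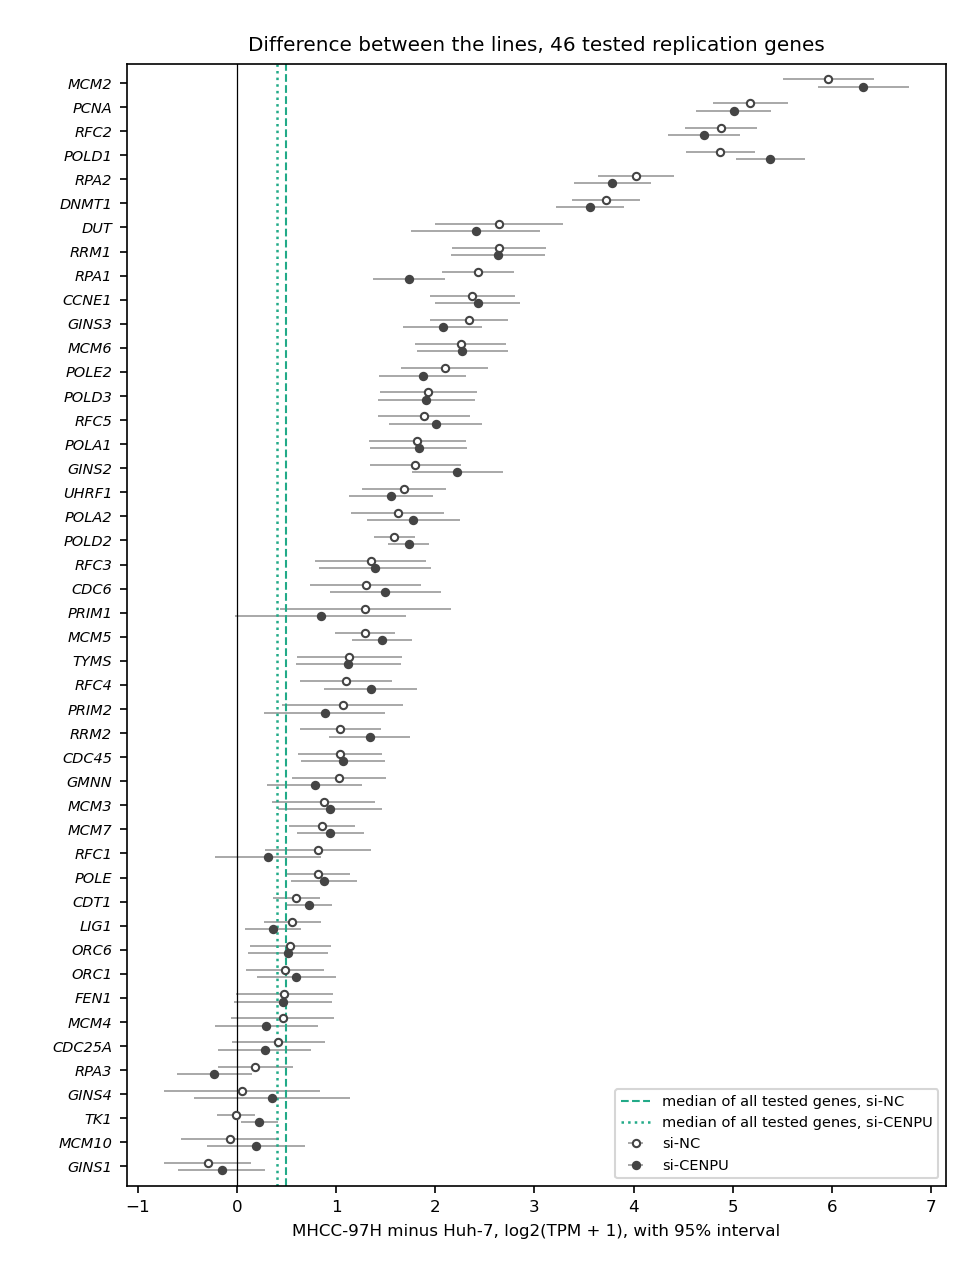
Difference between lines, MHCC-97H minus Huh-7 on the log2(TPM + 1) scale, for the 46 tested genes with si-NC and with si-CENPU, with 95% intervals from limma and lines at the median of all tested genes for each siRNA. Of the 46 genes, 37 lie above the median of all genes in each comparison, among them the 14 under 1 TPM in Huh-7, which had to differ. GINS1, MCM10, TK1, GINS4 and RPA3 lie from -0.29 to 0.19 with si-NC.

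In all, 13 replication genes averaged under 0.5 TPM in Huh-7 and none did in MHCC-97H. They were ORC2, MCM2, MCM6, GINS3, POLA1, POLD1, POLE2, PCNA, RFC2, RPA2, CCNE1, CCNE2 and DNMT1, and 10 of them were listed at 0 in at least 1 Huh-7 library. Their highest value in any Huh-7 library was 0.78 TPM, whereas their means in MHCC-97H ran from 0.978 to 81.0 TPM. They lie on 10 chromosomes. Their transcripts had a median GC content of 48.7% and a median length of 853 bases, against 49.97% and 743 bases for the other 35. Of the 44 replication genes at 2 TPM or more in MHCC-97H, 11 were under 0.5 TPM in Huh-7, compared with 795 of 8560 tested genes (9.29%). In the other direction 0 of 26 replication genes at 2 TPM or more in Huh-7 were under 0.5 TPM in MHCC-97H, compared with 832 of 7465 tested genes (11.1%). E2F-type letters occurred in 7 of the 11 promoters available for the near-0 genes and in 13 of the 30 for the other genes.

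Values at 0 in a table without counts can be failed estimates, and products that dividing cells cannot do without were among them, PCNA, MCM2 and POLD1 included. Genes outside the list were read the same way in Huh-7. Among genes looked up after the zeros were seen, CDK4 was 0 to 0.32 TPM in Huh-7 and 467.91 to 536.44 TPM in MHCC-97H, and CDK2 0 to 0.02 against 23.63 to 40.49 TPM. SDHA, a respiratory chain subunit, was 0 to 0.42 against 46.8 to 73.76 TPM. The mitochondrial genes MT-CO2 and MT-CO3 were at most 0.04 and 0.67 TPM in Huh-7 and at least 6936.27 and 5010.67 TPM in MHCC-97H, while MT-ND1 was 1221.48 to 2276.56 TPM in Huh-7 and 1676.75 to 2379.61 TPM in MHCC-97H. The part of such readings in the line differences of the replication genes was not tested. The strand setting of the counting is not given in the sources used here, and 14 of the 48 genes overlap another protein-coding gene, 4 of them among the 13 near 0. MCM2 overlaps TPRA1 on the opposite strand, which was read at 45.06 to 56.4 TPM in Huh-7 and 149.51 to 179.88 TPM in MHCC-97H. FEN1 overlaps TMEM258, at 2405.22 to 2658.97 TPM in Huh-7, and PRIM1 overlaps NACA, so values of these genes are uncertain.

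Depletion of CENPU was compared with si-NC within each line to see whether the replication genes responded. In Huh-7, 0 of 46 were called in either direction, where 0.00902% of all tested genes (1 of 11088) were called. In MHCC-97H, 0 of 46 were called, with the same background of 0.00902%. Averaged over both lines, and for the difference of the responses between lines, 0 of 46 were called as well, each against 0.00902% of all genes. At an unadjusted p below 0.05 in limma, 2 of the 46 (4.35%) passed in Huh-7, 1 in MHCC-97H, 1 in the average and 2 in the difference, where 4.57%, 3.42%, 4.06% and 3.45% of all tested genes did. The median log2 difference was -0.02 in Huh-7, against 0.01 for all genes, and -0.02 in MHCC-97H, against -0.05. In Huh-7 22 genes were above 0 and 24 below, and in MHCC-97H 18 above and 28 below. These medians turned sign with single libraries: in Huh-7 -0.12 without si-NC 1 and 0.06 without si-CENPU 2, in MHCC-97H -0.18 without si-NC 3 and 0.08 without si-CENPU 3.

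**Figure D4:**
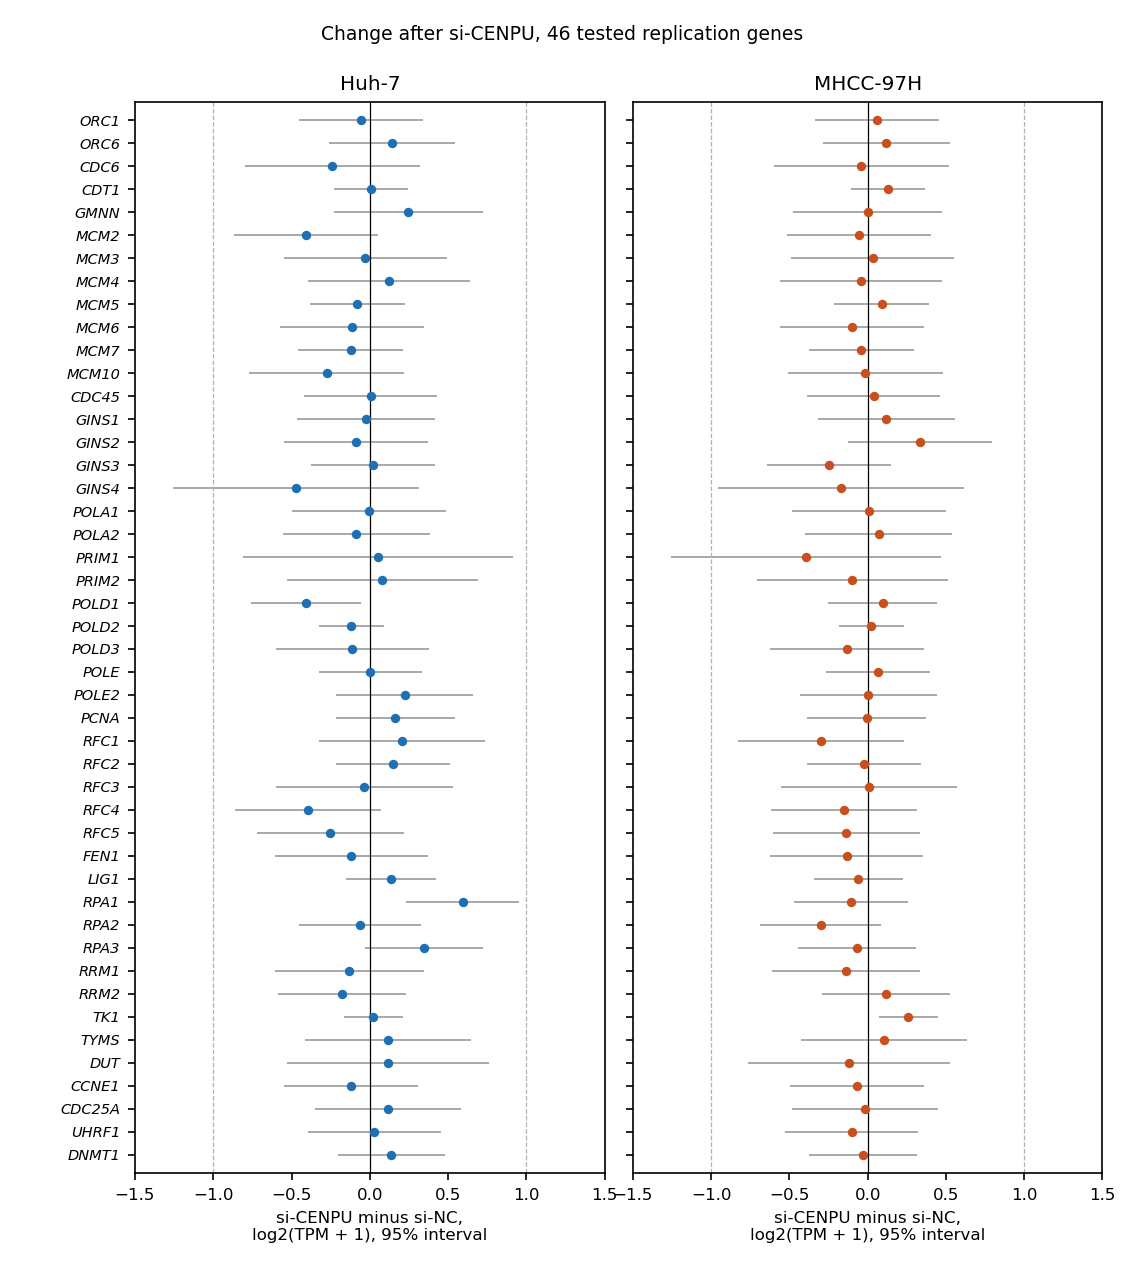
Difference si-CENPU minus si-NC on the log2(TPM + 1) scale for the 46 tested genes in each line, with 95% intervals from limma. Dashed lines mark a 2-fold change of TPM + 1, which is not a 2-fold change of TPM for low genes. The estimates scatter around 0 in both lines, from -0.47 for GINS4 to 0.59 for RPA1 in Huh-7 and from -0.40 for PRIM1 to 0.34 for GINS2 in MHCC-97H.

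A missed threshold does not show that the genes stayed the same, so the intervals are given. The 95% interval of a gene extended 0.448 to either side on the log2 scale in the median, and from 0.189 to 0.863 over the 46 genes. In Huh-7 45 of 46 intervals lay within a 2-fold change of TPM + 1 and 24 within a 1.5-fold change of TPM + 1. In MHCC-97H 45 lay within 2-fold and 31 within 1.5-fold on the same scale. Of the genes at 5 TPM or more, all 15 in Huh-7 and 33 of 34 in MHCC-97H lay within 2-fold. For genes near 0 the interval says little, since log2(TPM + 1) compresses their changes. The TPM of a low gene can change more than 2-fold inside these limits, so the counts do not bound changes of TPM. ORC2 and CCNE2, fitted without the filter, had a limma adjusted p of 1 in both lines.

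RPA1 had the smallest p in Huh-7. It was read at 0.49, 0.56 and 0.65 TPM with si-NC against 1.87, 1.11 and 1.17 TPM with si-CENPU. All si-CENPU libraries were above all si-NC libraries, at low levels. The means were 0.567 ± 0.0802 and 1.38 ± 0.423 TPM (SD, n = 3), a ratio of 2.44, and the log2 difference of 0.59 (SE 0.165, unadjusted p 0.00428) had a limma adjusted p of 0.829. In MHCC-97H RPA1 was read at 9.08, 7.52 and 6.06 TPM with si-NC against 7.06, 7.52 and 6.08 TPM with si-CENPU, which overlap. The difference between the responses of the lines was -0.70 (SE 0.233, unadjusted p 0.0123), with a limma adjusted p of 0.999. SMYD4, on the opposite strand over RPA1, was at 1.12 to 2.89 TPM in Huh-7.

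POLD1 and MCM2 had the smallest p on the lower side in Huh-7, from values near 0. The lowest estimate was that of GINS4, at -0.47. It was read at 9.45, 3.46 and 2.28 TPM with si-NC against 3.8, 1.99 and 3 TPM with si-CENPU. These overlap, and the high mean with si-NC rests on si-NC 1. POLD1 had a log2 difference of -0.41 (SE 0.158, unadjusted p 0.0258, limma adjusted p 1), with overlapping libraries. MCM2 went from 0, 0.38 and 0.69 TPM to 0 in all 3 si-CENPU libraries, and its difference of -0.41 (SE 0.208) had an unadjusted p of 0.076 in limma. RFC4 was read at 4.09, 6.38 and 5.79 TPM with si-NC against 4.44, 2.8 and 4.42 TPM with si-CENPU. These overlap, with a log2 difference of -0.40 (SE 0.211) and an unadjusted p of 0.0876 in limma. On the higher side RPA3 was read at 23.93, 38.68 and 31.18 TPM with si-NC against 33.7, 43.7 and 41.24 TPM with si-CENPU, overlapping, at log2 0.35 (SE 0.172, unadjusted p 0.0686 in limma). GMNN was read at 3.66, 6.65 and 5.23 TPM with si-NC against 6.61, 4.82 and 7.34 TPM with si-CENPU, also overlapping, at log2 0.24 (SE 0.216).

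TK1 had the smallest p in MHCC-97H. It was read at 115.02, 138.17 and 135.62 TPM with si-NC against 153.75, 164.26 and 146.64 TPM with si-CENPU. The groups did not overlap, with means of 130 ± 12.7 and 155 ± 8.86 TPM (SD, n = 3) and a ratio of 1.195. The log2 difference of 0.26 (SE 0.0857, unadjusted p 0.0118) had a limma adjusted p of 1. In Huh-7 TK1 was read at 123.31, 131.77 and 134.74 TPM with si-NC against 135.73, 126.01 and 134.15 TPM with si-CENPU, which overlap (log2 0.02). Averaged over both lines the difference was 0.14 (SE 0.0606, unadjusted p 0.0408, limma adjusted p 0.9995). In that average RPA1 and RPA3 had the next smallest p on the higher side. Their log2 differences were 0.24 (SE 0.117, unadjusted p 0.0615 in limma) and 0.14 (SE 0.122, unadjusted p 0.274). On the lower side RFC4 stood at -0.27 (SE 0.149, unadjusted p 0.0943 in limma) and MCM2 at -0.23 (SE 0.147, unadjusted p 0.144). RPA2 stood at -0.18 (SE 0.124, unadjusted p 0.171 in limma).

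The other named genes in MHCC-97H overlapped between the siRNAs. GINS2 was read at 21.17, 16.38 and 12.65 TPM with si-NC against 21.89, 23.1 and 18.2 TPM with si-CENPU (log2 0.34, SE 0.209, unadjusted p 0.136 in limma). CDT1 was read at 80.47, 85.74 and 93.86 TPM with si-NC against 97.41, 100.33 and 87.25 TPM with si-CENPU (log2 0.13, SE 0.108). Both leaned higher, within the spread of the libraries. RPA2 was read at 19, 17.21 and 12.42 TPM with si-NC against 13.25, 15.4 and 10.19 TPM with si-CENPU (log2 -0.30, SE 0.176, unadjusted p 0.115 in limma). GINS3 was read at 3.42, 3.42 and 5.64 TPM with si-NC against 3.08, 4.14 and 2.71 TPM with si-CENPU (log2 -0.25, SE 0.179). RFC1 was read at 4.41, 2.81 and 2.15 TPM with si-NC against 2.69, 2.96 and 1.39 TPM with si-CENPU (log2 -0.30, SE 0.242). These 3 leaned lower, again within the spread.

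Groups without overlap were counted as well. In Huh-7 the si-CENPU libraries all lay above the si-NC libraries for 6 of the 46 genes, where 3.79% of all tested genes did so, and all below for 1, where 3.86% did. The 6 were GINS3, POLE2, PCNA, RFC2, RPA1 and DNMT1, and the 1 was MCM6. Apart from RPA1 these 7 were at most 0.28 TPM in every Huh-7 library, so their order rests on values near 0. In MHCC-97H TK1 alone of the 46 lay above, where 3.19% of all tested genes did, and none lay below, where 3.76% did.

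Libraries differed from each other across most replication genes at once, within both siRNA groups. Against the median of their own line, 45 of 48 genes lay below in MHCC-97H si-NC 3 and 45 of 48 in MHCC-97H si-CENPU 3. The median deviation of the 46 tested genes from their mean over the line, on the log2(TPM + 1) scale, was -0.28 and -0.22 in these libraries, while that of all tested genes was -0.11 and -0.15. In Huh-7, 38 of 48 lay below in si-NC 1 (median deviation -0.19, all tested genes -0.18) and 35 of 48 in si-CENPU 2 (-0.14, all tested genes -0.08). The libraries with most genes above were MHCC-97H si-NC 1 and si-NC 2, with 38 of 48 each, and Huh-7 si-CENPU 3 and MHCC-97H si-CENPU 2, with 37 each. Across genes within a library, the Spearman correlation of the deviation with transcript GC content ran from -0.53 in MHCC-97H si-NC 1 to 0.48 in MHCC-97H si-NC 3. It was near 0 in others, such as -0.013 in Huh-7 si-CENPU 1 and 0.053 in MHCC-97H si-CENPU 2. The part of such library differences in the spread of the replication genes was not tested. Without MHCC-97H si-NC 3, MHCC-97H si-CENPU 3 and Huh-7 si-NC 1 together, 0 replication genes were called with si-CENPU in any of the 4 knockdown comparisons. Between lines 39 and 41 were then called higher with si-NC and si-CENPU, where 49.2% and 50.6% of all tested genes were.

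**Figure D5:**
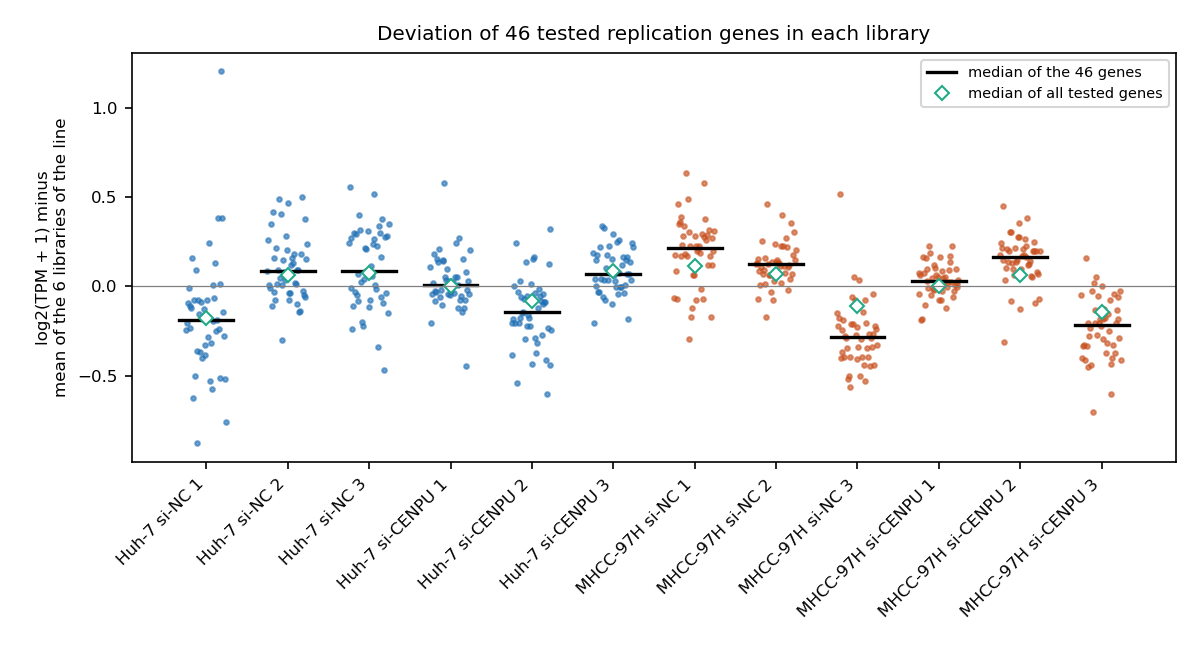
Deviation of each of the 46 tested replication genes from its mean over the 6 libraries of the line, on the log2(TPM + 1) scale, in each of the 12 libraries, with bars at the median of the 46 genes and diamonds at that of all tested genes. Most genes lie below 0 in MHCC-97H si-NC 3 and MHCC-97H si-CENPU 3, 1 library of each siRNA.

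Genes outside the list that also act in replication were compared through a second list of 45, among them further polymerase, helicase and origin factors, of which 34 were tested. With si-CENPU 0 of the 34 were called in either line, where 0.00902% of all tested genes (1 of 11088) were called in each. The smallest p among them in Huh-7 was that of POLE4, a small subunit of polymerase epsilon, which averaged 0.297 TPM with si-NC against 0.943 TPM with si-CENPU (limma adjusted p 0.829). Between lines with si-NC, 26 of the 34 were called higher in MHCC-97H and 2 lower, where 50.1% and 22.9% of all tested genes were, with a median of 0.84 against 0.49 for all genes. With si-CENPU 23 were called higher and 3 lower, where 46.2% and 23.9% of all were, with a median of 0.79 against 0.40. Of the 30 at 2 TPM or more in MHCC-97H, 2 (6.67%) were under 0.5 TPM in Huh-7, where 9.29% of all tested genes were. Here too genes that passed the filter through 1 line only had to differ, and no count restricted to genes expressed in both lines is given.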

How the data were processed

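The authors deposited TPM, 1 column per sample over 60664 Ensembl identifiers. They used HISAT2 and StringTie with GRCh38.p13, per the submitters' processing notes. For versions, annotation release, strand setting and filters, the sources used here give nothing. Per the labels' protocols, a PureLink kit was used for RNA and a TruSeq RNA kit for libraries. Groups and replicate numbers came from the sample titles. Depth is unknown, so no counting interval is given.

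GENCODE release 29 on GRCh38 gave gene coordinates and GC content, and RefSeq on GRCh38.p14 gave promoters. With limma 3.58.1 in R 4.3.3, 1 mean per group was fitted to log2(TPM + 1) of all 12 libraries, with trend moderation and 8 residual degrees of freedom. Genes with a mean of at least 1 TPM were tested, and two-sided p-values were adjusted by Benjamini-Hochberg within each comparison over all tested genes. Of the 6 same-numbered pairs of si-NC and si-CENPU libraries, only MHCC-97H 3 correlated above 0.1 in its deviations, so the numbers were not used as pairs.

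The 48 genes, the other lists and the tests were chosen with earlier results of these data known. Every gene is accounted for. Library values and tests are given for up to 8 genes called per comparison, the 3 with the smallest p in each direction per knockdown comparison, and the highest of each role, except that genes under 1 TPM in Huh-7 have no p between lines. The code was tested on simulated data. Alternatives were other pseudocounts, filters and scalings, a GC correction, a replicate block, other moderation, the 6 samples of a comparison alone and leaving out libraries. Plots were made in Python 3.11.15 with matplotlib 3.10.9.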

Additional observations from a re-analysis of the deposited data

How the results depend on the processing

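Across all alternatives run, 0 replication genes were called with si-CENPU in either line, in the average or in the difference between lines. The smallest adjusted p over them in limma was 0.213 in Huh-7 (RPA1, pseudocount 0.1) and 0.401 in MHCC-97H (TK1, GC trend removed), against 0.829 and 1 as reported. Between lines, a filter of at least 1 TPM in each line lowered the counts to 24 of 32 with si-NC and 23 of 32 with si-CENPU. Under that filter 47.8% and 43.1% of all tested genes were called higher. It leaves out the genes under 1 TPM in Huh-7, which had to differ. Leaving out single libraries gave 36 to 41 genes with si-NC and 33 to 39 with si-CENPU, against 38 and 37 with all 12 libraries. With all 12, 50.1% and 46.2% of all tested genes were called higher. Such counts include genes that passed the filter only through MHCC-97H. With the replicate number as a block, 0 replication genes were called in the knockdown comparisons. Between lines 40 and 39 were called higher with si-NC and si-CENPU, where 51.0% and 47.1% of all tested genes were. However, same-numbered libraries share only a number: their deviations correlated between -0.09 and 0.13. Without MHCC-97H si-NC 3, MHCC-97H si-CENPU 3 and Huh-7 si-NC 1 together, a setting chosen after seeing the data, GINS3 turned to 0.0511 in MHCC-97H and RPA3 to -0.0165 in the average over lines. The cause was not tested. The CENPU comparison was repeated only with a pseudocount of 0.1, with trimmed-mean scaling and without single libraries. It kept its direction in each of these. TPM gives no depth, so nothing can be said on detection limits near 0.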

Other observations

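Genes of G2 and mitosis, a list of 41 with 37 tested, were read with the same direction between lines. With si-NC 35 were called higher in MHCC-97H and 0 lower, where 50.1% and 22.9% of all tested genes were, with a median of 1.31 on the log2 scale against 0.49 for all. With si-CENPU 34 were called higher and 0 lower, where 46.2% and 23.9% of all were, with a median of 1.15 against 0.40. Of the 36 at 2 TPM or more in MHCC-97H, 4 (11.1%) were under 0.5 TPM in Huh-7, where 9.29% of all tested genes were. Genes that passed the filter through 1 line only had to differ. No count restricted to genes expressed in both lines is given for this list. With si-CENPU 0 of the 37 were called in either line by limma, where 0.00902% of all tested genes were in each. None had an unadjusted p below 0.05 in limma, where 4.57% of all tested genes did in Huh-7 and 3.42% in MHCC-97H. In Huh-7 16 were above 0 and 20 below. In MHCC-97H 8 were above and 29 below, where 3875 and 6959 of all tested genes were.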
